A study of Sus scrofa with 6 samples.

Results

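The enzymes of phase II conjugation described here are the UDP-glucuronosyltransferases (UGT), the cytosolic sulfotransferases (SULT), the glutathione transferases (GST) and the microsomal glutathione transferases (MGST). All rows of the liver gene table whose symbol names UGT1 to UGT3, SULT1 to SULT6, GST of the classes A, K, M, O, P, T or Z, or MGST were taken, which gave 15 of 17109 genes: 2 UGT, 4 SULT, and 9 GST and MGST genes. The rule used no measured value. The livers came from Bama minipigs and were collected after an overnight fast, with 1 RNA library per animal. The libraries S03, S04 and S05 belong to pigs heterozygous for an edited ASGR1 allele (ASGR1+/-), and WT1, WT2 and WT3 belong to unedited pigs. ASGR1 is the gene of the major chain of the asialoglycoprotein receptor, by which hepatocytes clear glycoproteins from blood. The edit was made with CRISPR/Cas9 in fetal fibroblasts and deletes a short stretch that spans an intron-exon border. The founders were cloned from selected fibroblast colonies, so the edit is not restricted to the liver. The age of these 6 pigs is not given beyond a range that covers all experiments of the study. By the methods of the study, pigs within an experiment differed in age by at most 1 week. The libraries are not tied to founders or offspring. S03 was left out by the study after its principal-component analysis, so S04 and S05 against WT is the main comparison here, S03 is shown apart, and a comparison of all 6 libraries is given beside it.

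Conjugation attaches a charged or polar group to a drug, hormone, bile pigment or lipid peroxidation product, which makes it soluble enough for bile or urine. UGT enzymes sit in the endoplasmic reticulum and transfer glucuronic acid from UDP-glucuronate, SULT enzymes transfer sulfate from PAPS (3'-phosphoadenosine 5'-phosphosulfate) in the cytosol, and GST enzymes join glutathione to electrophiles. The liver is the main site of all these reactions. The members therefore depend on cofactor supply, on export pumps that move the conjugates out of the hepatocyte, and on nuclear receptors and the oxidant-responsive factor NRF2 that are known to act on their genes.

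Levels of different genes were compared in TPM (transcript abundance scaled for gene length and library size), and libraries were compared in CPM (counts relative to library size, with TMM scaling). The libraries held 15397768 to 16237732 estimated counts each. A gene was called when its adjusted p from edgeR was 0.05 or less, with the adjustment over all genes tested. Summed over 26 genes of chromosome Y, S03 was at 45.3 CPM and the other libraries 436 to 469, and the labels give no sex. According to the methods of the study its pigs were male except for a female among the offspring that is not tied to a library. The part of sex in the values of S03 was not tested. ASGR1 itself measured 272.9 to 334 CPM over the ASGR1+/- livers and 284.8 to 369.5 CPM over the WT livers. The groups overlapped for ASGR1, and counts summed over the gene may miss so short a deletion, so this gene checked the labels only weakly. The hepatocyte markers measured were well above 0 in every library.

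Several conjugation genes were among the most abundant transcripts of these livers. GSTA1 had the highest TPM of the 15 genes in WT, at rank 43 of the 17109 genes, followed by GSTO1 at rank 79, SULT2A1 at rank 94 and MGST1 at rank 200. UGT1A6 was at rank 249, SULT1E1 at 352 and UGT2B31 at 435. Near the bottom were GSTM3 at rank 9493 and SULT2B1 at rank 12289. The 15 genes summed to 8748 ± 1021 TPM (SD, n = 3) in WT, to 6427, 4555 and 5704 in S04, S05 and S03, and the 3 WT sums, from 8045 to 9919, lay above all 3 ASGR1+/- sums.

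**Figure D1:**
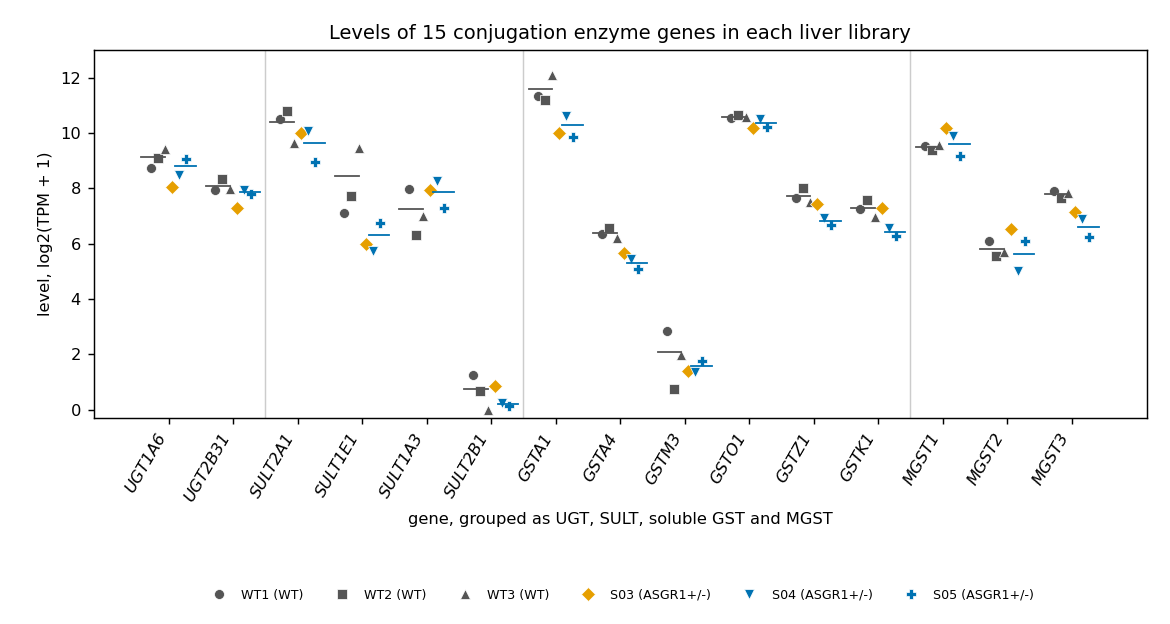
Level of each gene as log2(TPM + 1) in each of the 6 libraries, with 1 point per library. Short lines mark the mean TPM on that scale for WT (grey) and for S04 and S05 (blue). GSTA1, GSTO1, SULT2A1 and MGST1 had the highest WT means, while GSTM3 and SULT2B1 had the lowest. The WT points of SULT1E1 were spread the widest among the genes of high level.

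Across the families, most members had a lower level in S04 and S05 than in WT, but none was called by edgeR. Of the 14 members tested, 13 were negative in log2 fold change and 1, SULT1A3, was positive, and their median was -0.80. Over all 13401 genes tested the median was 0.003, with 6734 positive and 6667 negative. No member was called higher or lower, against 0.216% of all genes called higher and 0.575% called lower. At an unadjusted p under 0.05 edgeR had 6 of 14 members lower and 0 higher, where 12.01% of all genes were lower and 8.89% higher. DESeq2, the tool of the study, called 5 members lower (GSTA1, GSTA4, GSTK1, GSTZ1 and MGST3) and 0 higher, beside 6.30% of all genes lower and 3.26% higher. The DESeq2 count depended on single animals, since it was 0 without S05 and 3 without WT2, beside 2.35% and 3.40% of all genes called lower. These p-values weigh the group difference against the spread between 5 animals, 2 of them ASGR1+/-, which both tools estimate with help from other genes.

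With S03 added, the 14 members had a median log2 fold change of -0.71, and 11 were negative. The median over the 13243 genes tested was 0.023. Again edgeR called 0 members, where it called 0.128% of all genes lower and 0.00755% higher. At an unadjusted p under 0.05 from edgeR 6 members were lower and 0 higher, beside 9.45% of all genes lower and 6.67% higher. DESeq2 called 3 members lower (GSTA1, GSTA4 and MGST3) and 0 higher, beside 3.91% of all genes lower and 1.73% higher. Both comparisons use the same WT libraries.

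The levels of single animals gave a similar picture. In CPM, S04 and S05 both lay below all 3 WT libraries for 6 of 14 members, GSTA1, GSTA4, GSTK1, GSTZ1, MGST3 and SULT1E1, beside 20.1% of all genes tested. They lay above all WT libraries for 0 of 14, beside 19.0%. When S03 was counted with them, the groups did not overlap in CPM for 6 members that were lower, beside 11.8% of all genes. They did not overlap for 0 members that were higher, beside 9.93%. In TPM with S03 counted, GSTK1 overlapped between the groups and GSTO1 did not. By family, the members that did not overlap without S03 were 0 of 2 UGT, 1 of 3 SULT, 4 of 6 soluble GST and 1 of 3 MGST. In either direction the 6 of 14 stood beside 39.1% of all genes. The count became 11 without S04 and 10 without S05, beside 66.6% and 60.4% of all genes. In bulk liver RNA, fewer cells of a type and less RNA per cell cannot be told apart.

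**Figure D2:**
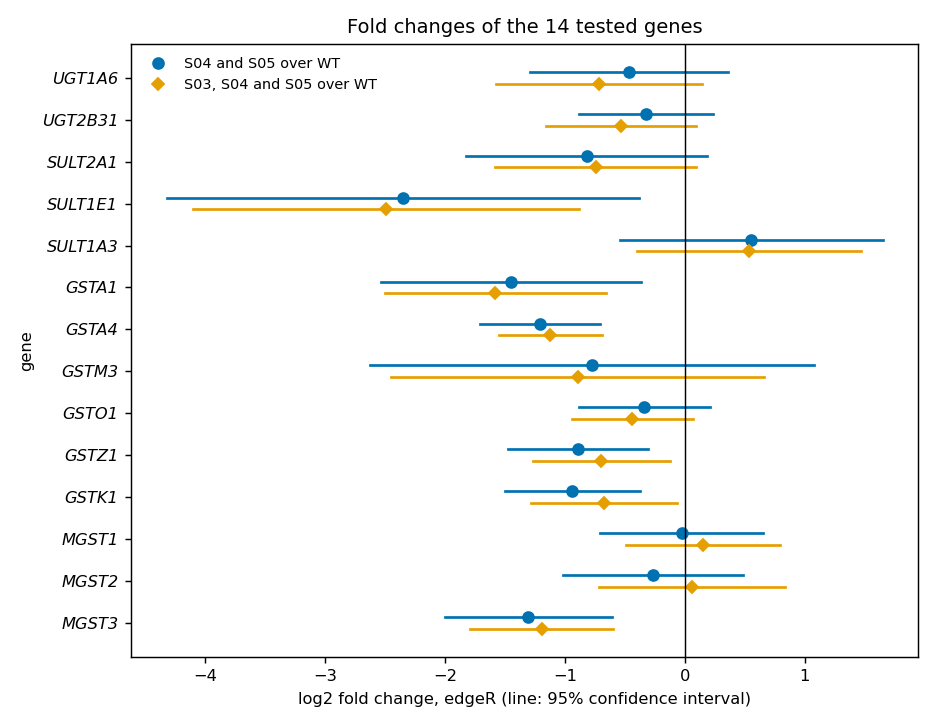
Log2 fold change of each of the 14 tested genes from edgeR, with its 95% confidence interval, for S04 and S05 over WT (blue circles) and for all 3 ASGR1+/- livers over WT (orange diamonds). Intervals lay wholly below 0 for SULT1E1, GSTA1, GSTA4, GSTZ1, GSTK1 and MGST3 in both comparisons, although no gene passed after adjustment over all genes, and SULT1E1 had the widest of them.

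For the UGT genes the groups overlapped in CPM. Their median log2 fold change was -0.40 for S04 and S05 and -0.63 with S03. UGT1A6, which glucuronidates small planar phenols in humans, measured 597 CPM in S04 and 812 CPM in S05, and WT1, WT2 and WT3 had 636, 925 and 1360 CPM. The ASGR1+/- values lay at the low end of the WT range and overlapped it, with S04 below every WT library and S05 above WT1. Its log2 fold change was -0.47 (95% interval -1.29 to 0.36, adjusted p = 0.495). S03 had 369 CPM, below the lowest WT library, and adding it gave -0.72 (adjusted p = 0.392). Without WT3, the library of highest UGT1A6, it was -0.15. UGT1A6 spans 133968693 to 134049029 on chromosome 15 (build Sscrofa11.1 for all coordinates), and RefSeq gives this gene model 5 transcripts, so its counts may cover more than 1 UGT1A first exon.

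UGT2B31 belongs to the UGT2B subfamily, whose human members conjugate steroids and bile acids. It had 402 CPM in S04 and 342 in S05, and 368, 546 and 482 CPM in WT1, WT2 and WT3. S04 lay within the WT range and S05 just under it, while S03, at 219.8, was lowest of all. For UGT2B31 the log2 fold change was -0.32 (95% interval -0.88 to 0.23, adjusted p = 0.484), and with S03 it was -0.54 (adjusted p = 0.384). Its estimated counts were not whole in any of the 6 libraries, so reads may have been split with similar copies and the level of this gene is uncertain. It lies on chromosome 8 from 66310697 to 66323755, within 100 kb of 2 unnamed gene models, LOC100515741 and LOC110262115, whose counts were also not whole. Summed over the 3 models, S04 had 1392 CPM and S05 1062, against 1359 to 1903 in WT, with UGT2B31 taking 25.3% to 34.3% of the sum. The overlap between the groups was thus the same for the sum as for UGT2B31 alone, since S04 lay within the WT range. The unnamed models LOC100516628 and LOC100515394 lie in the same window, had whole counts and are not members. Both were below every WT library in S04, S05 and S03, although S04 only just so for LOC100516628. Their log2 fold changes were -1.50 and -2.61 (adjusted p = 0.275 and 0.118 from edgeR).

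The SULT genes showed the widest spread of fold changes, from -2.35 to 0.55 on the log2 scale, with a median of -0.82 over the 3 tested. SULT2A1, the hydroxysteroid sulfotransferase that acts on DHEA and bile acids, was the most abundant of them. Its CPM was 569 in S04 and 247 in S05, and 692, 966 and 504 in WT1, WT2 and WT3. S05 lay below the WT range and S04 within it, and S03 had 473, just below WT3. Its log2 fold change was -0.82 (95% interval -1.82 to 0.18, adjusted p = 0.325). It was -1.54 without S04, where DESeq2 called it lower, and -0.33 without S05. SULT2A1 lies on chromosome 6 from 53525496 to 53536723.

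SULT1E1, the sulfotransferase of highest affinity for oestrogens, lies on chromosome 8 from 66811536 to 66838181 and had the most negative log2 fold change of the 14 members. It measured 65.2, 126.6 and 68.4 CPM in S04, S05 and S03. The WT values were 158 in WT1, 271 in WT2 and 1039 in WT3, so all 3 ASGR1+/- livers were lower than every WT liver, but WT3 stood far above the other two. This came to a log2 fold change of -2.35 (standard error 0.83, 95% interval -4.32 to -0.38, adjusted p = 0.178), and -2.49 with S03 (adjusted p = 0.152). Without WT3 it was -1.16. The adjusted p from DESeq2 was 0.190 without S03 and 0.0693 with it. For S04 and S05, DESeq2 called SULT1E1 lower without WT3 but not without WT1 or WT2. In the comparison with S03 it called SULT1E1 lower when any 1 WT library was left out, but not when an ASGR1+/- library was. The ratio of the highest to the lowest WT library was 6.60 for SULT1E1, above that of 98.3% of the genes tested, where the median gene had 1.38. In TPM, SULT1E1 took 7.50%, 10.3% and 43.0% of the SULT sum in WT1, WT2 and WT3, and 3.61% and 14.1% in S04 and S05.

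SULT1A3, whose human namesake sulfates catecholamines such as dopamine, lies on chromosome 3 from 18351205 to 18354653. It was the only member with a positive fold change in the main comparison. Its CPM was 200.0, 96.0 and 141 in S04, S05 and S03, and 150, 53.4 and 98.7 in WT1, WT2 and WT3. S04 lay above the WT range and S05 and S03 within it. The estimated log2 fold change was 0.55 (95% interval -0.54 to 1.65, adjusted p = 0.541), and it rested on S04, since without that library it was -0.07. SULT2B1, which sulfates cholesterol and pregnenolone, had at most 0.833 CPM in any library and was not tested. SULT4A1, SULT6B1 and UGT3A2, which RefSeq annotates in this genome, were not analysed here.

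**Figure D3:**
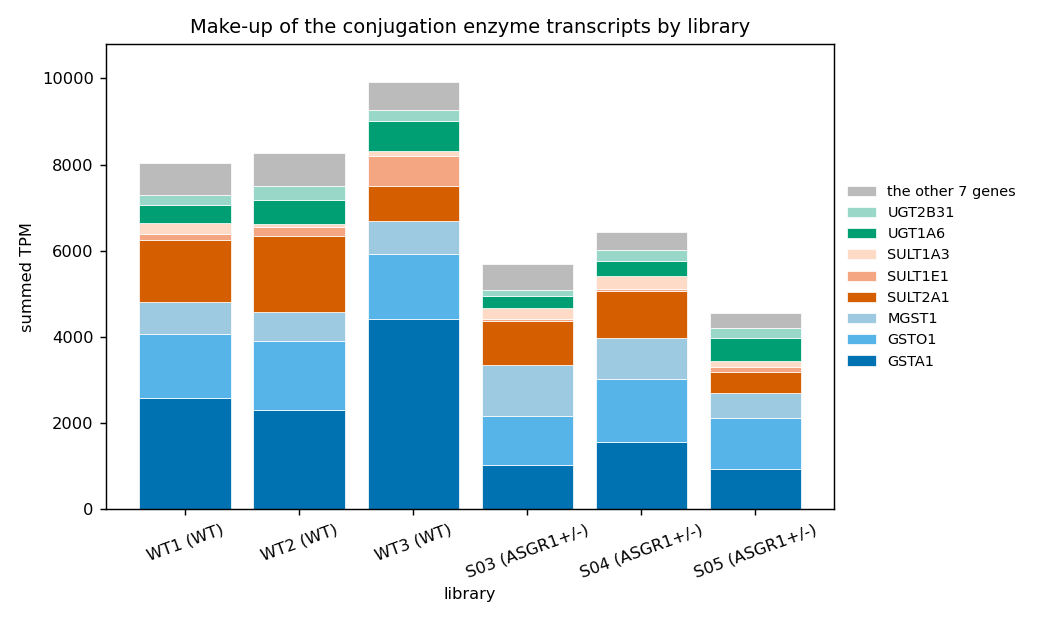
Summed TPM of the 15 genes in each of the 6 libraries, stacked by gene, with the 7 genes of lowest mean TPM joined in grey. WT bars reach 8045 to 9919 TPM and ASGR1+/- bars 4555 to 6427, and the part taken by GSTA1 is the one that differs most in height.

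The soluble GST genes, which comprise the cytosolic classes and the mitochondrial and peroxisomal kappa class, held the most members lower than WT without overlap. Each of the 6 was negative, and their median log2 fold change was -0.92 for S04 and S05 and -0.79 with S03, and their summed TPM was 5093 ± 1056 (SD, n = 3) in WT against 3277, 2331 and 2555 in S04, S05 and S03. GSTA1, an alpha-class enzyme that conjugates electrophiles and binds bilirubin and haem, had the largest difference in TPM among them, with means of 3103 in WT and 1252 in S04 and S05. S04 had 859 CPM of it, S05 485 and S03 496, while WT1 had 1299, WT2 1325 and WT3 2883. Every ASGR1+/- liver was lower than every WT liver, and WT3 was again the highest. For GSTA1 the log2 fold change was -1.45 (standard error 0.46, 95% interval -2.53 to -0.37, adjusted p = 0.148 from edgeR and 0.0137 from DESeq2). With S03 it was -1.58 (adjusted p = 0.132 from edgeR and 0.00229 from DESeq2), and without WT3 it was -0.96.

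The share of GSTA1 in the TPM of all GST and MGST genes was 46.7%, 43.0% and 59.99% in WT1, WT2 and WT3. S04, S05 and S03 had shares of 35.8%, 30.6% and 25.9%, below each WT share. GSTO1 and MGST1 took larger shares in S04 and S05 than in WT, with GSTO1 at 33.1% and 38.8% in S04 and S05 and 20.7% to 29.9% in WT, and MGST1 at 21.8% and 18.9% against 10.4% to 13.2%. In S03 the GSTO1 share, 29.1%, was within the WT range and that of MGST1 was 29.6%. GSTA1 also had non-whole counts in all 6 libraries, but it held at least 98.99% of the sum with LOC100526118, the neighbouring model that shared this property. GSTA1 lies on chromosome 7 from 46538743 to 46550781.

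GSTA4, which detoxifies 4-hydroxynonenal, a product of lipid peroxidation, lies beside it from 46635903 to 46656491. Its CPM was 31.0, 22.8 and 31.9 in S04, S05 and S03, and 54.0, 70.0 and 62.5 in WT1, WT2 and WT3. The groups did not overlap, and the highest library was 1.30 times the lowest in WT and S04 was 1.36 times S05. GSTA4 had the smallest adjusted p of the members: its log2 fold change was -1.21 (standard error 0.21, 95% interval -1.70 to -0.71, adjusted p = 0.0561 from edgeR and 0.000133 from DESeq2). WT was 2.31 times as high as S04 and S05 (95% interval 1.64 to 3.26). On the log2 scale the value with S03 was -1.12 (adjusted p = 0.0645 from edgeR and 9.8e-05 from DESeq2).

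GSTK1 and GSTZ1 had nearly the same pattern. GSTK1, the kappa-class enzyme of mitochondria and peroxisomes on chromosome 18 from 6992623 to 6999068, had 115 CPM in S04 and 87.7 in S05 and 167, 238 and 178 in WT1, WT2 and WT3. GSTZ1, which isomerizes maleylacetoacetate in tyrosine breakdown and lies on chromosome 7 from 100392217 to 100404025, had 102 CPM in S04 and 78.2 in S05 and 133, 206 and 163 in WT1, WT2 and WT3. For both genes WT2 was the highest library and S05 the lowest, and the groups did not overlap. The log2 fold change was -0.94 for GSTK1 (adjusted p = 0.0981 from edgeR and 0.00848 from DESeq2) and -0.89 for GSTZ1 (adjusted p = 0.116 from edgeR and 0.0195 from DESeq2). S03 stood closer to WT for these genes, at 163 CPM for GSTK1 and 130 CPM for GSTZ1, in each case just below the lowest WT library. In TPM, S03 lay within the WT range for GSTK1, at 153.9 against 123.7 to 189.9, and below it for GSTZ1. With S03 neither was called by DESeq2, and the edgeR log2 fold changes were -0.67 and -0.70.

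GSTO1, an omega-class enzyme that reduces dehydroascorbate and mixed disulfides, lies on chromosome 14 from 115206434 to 115216624. It had 633 CPM in S04 and 491 in S05, and 593, 740 and 797 in WT1, WT2 and WT3. S04 lay within the WT range, and the log2 fold change was -0.34 (95% interval -0.89 to 0.21, adjusted p = 0.459). In TPM the groups did not overlap for GSTO1, with 1449 and 1182 TPM in S04 and S05 and 1484 to 1607 in WT. GSTM3, a mu-class gene, had 0.276 to 2.14 CPM over all libraries and a log2 fold change of -0.77 with a 95% interval from -2.62 to 1.08. Its highest WT library was 7.76 times the lowest, and without WT1 the log2 fold change was -0.13. The gene model that RefSeq also calls GSTT1 carries only a locus number in the table and did not enter the members.

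The MGST genes, membrane proteins of the MAPEG family, did not share 1 pattern. MGST3, which has glutathione transferase and peroxidase activity and lies on chromosome 4 from 85069603 to 85095022, was at 45.03, 26.0 and 44.4 CPM in S04, S05 and S03, and 80.0, 75.0 and 109 CPM in WT1, WT2 and WT3. All ASGR1+/- livers were below all WT livers. The log2 fold change was -1.31 (standard error 0.29, 95% interval -2.00 to -0.61, adjusted p = 0.0812 from edgeR and 0.002 from DESeq2), and -1.19 with S03 (adjusted p = 0.0999 from edgeR and 0.00224 from DESeq2).

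MGST1, an abundant enzyme of the endoplasmic reticulum and the outer mitochondrial membrane on chromosome 5 from 56259566 to 56283823, measured 407 CPM in S04 and 232 CPM in S05, beside 288, 300 and 390 in WT1, WT2 and WT3. S04 was above the WT range and S05 below it. The log2 fold change was -0.03 (95% interval -0.71 to 0.65, adjusted p = 0.965), and its sign changed with several settings, among them the addition of S03 (0.15). MGST2, which can form leukotriene C4, lies on chromosome 8 from 87318180 to 87394563. It had 9.75 CPM in S04 and 20.1 in S05 and 15.3 to 19.3 in WT, with a log2 fold change of -0.26 (95% interval -1.01 to 0.48, adjusted p = 0.670) that turned to 0.06 with S03. For MGST1 and MGST2, S03 was above every WT library, at 446 and 26.2 CPM.

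Set side by side, the families had medians of -0.40 (UGT), -0.82 (SULT), -0.92 (soluble GST) and -0.26 (MGST) without S03, and -0.63, -0.75, -0.79 and 0.06 with it. With 2 to 6 tested genes each, these medians are descriptions, and a difference between families was not tested. In summed TPM, WT had 825 ± 139 for UGT, 1833 ± 207 for SULT, 5093 ± 1056 for soluble GST and 997 ± 71.3 for MGST (SD, n = 3). S04 and S05 had 603 and 748 for UGT, 1442 and 758 for SULT, 3277 and 2331 for soluble GST and 1105 and 718 for MGST. The groups did not overlap for SULT and soluble GST and overlapped for UGT and MGST.

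The ASGR1+/- livers also differed among themselves. S04 had the higher CPM of the pair for 10 of 14 tested members, the exceptions being UGT1A6, SULT1E1, GSTM3 and MGST2. S03 lay below every WT library for 10 of 14 members and above every WT library for 2. Over all genes tested, S03 was below all WT libraries for 29.9% and above for 29.3%.

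Markers of cell types differed between the same libraries. Of 12 hepatocyte markers, 9 were negative, and their median was -0.71 beside -0.80 for the members. Of the 12, 7 did not overlap and were lower, beside 20.1% of all genes. FGB, the fibrinogen beta chain, was above all WT libraries, at 29687 and 36655 CPM against 11160 to 23610, while ALB, albumin, had 9049 and 12415 CPM against 33494 to 114479. S03 had 18757 CPM of FGB, within the WT range, and 28428 CPM of ALB. EdgeR called neither (adjusted p = 0.203 and 0.0705), and DESeq2 called FGB higher (adjusted p = 0.0426) and ALB lower (1.15e-07). In each library these 2 genes made up most of the marker sum. That sum was 57000 to 65462 CPM in S04 and S05, 68872 CPM in S03 and 79990 to 199508 CPM in WT, with WT3 the highest, as it was for GSTA1 and SULT1E1. The hepatocyte genes HNF4A and ASGR1 overlapped between the groups. Of 6 erythroid markers all had lower values in S04 and S05, at 3.37 and 18.0 CPM summed against 84.2 to 247.5 in WT, while S03 had 796.5. Of 9 Kupffer cell and macrophage markers 8 were negative, with sums of 1603 and 1991 CPM against 2013 to 3119, and no gene of these 3 lists was at 0 in any library. Negative values were also held by 7 of 8 endothelial, 6 of 8 stellate cell and fibroblast, 7 of 7 lymphocyte and 4 of 7 cholangiocyte markers tested, and 4 of 5 neutrophil markers were positive. Endothelial markers summed to 250.6 and 353 CPM in S04 and S05, below WT at 410 to 508, and S03 was the highest at 774. Neutrophil markers summed to 17.1, 16.9 and 13.7 CPM in S04, S05 and S03, above WT at 5.53 to 8.51, and lymphocyte markers to 54.3, 38.3 and 88.5 CPM, with 63.5 to 137 in WT. The groups overlapped for stellate cells and fibroblasts (500.4 and 336 CPM in S04 and S05, 1154 in S03 and 429 to 1079 in WT). Cholangiocyte sums were 40.1 and 43.6 CPM in S04 and S05, 36.0 in S03 and 24.1 to 39.8 in WT. The neutrophil gene MMP8 was at 0 in WT1 and WT2. Of all these markers edgeR called 1, the lymphocyte gene KLRD1, which was lower. The part of these cell types, and of WT3, in the differences of the members was not tested.

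Genes around cofactor supply were then read for each family. Beside the counts of all lists below, edgeR called 0.575% of all genes lower and 0.216% higher. At an unadjusted p under 0.05 edgeR had 12.01% lower and 8.89% higher, and DESeq2 called 6.30% lower and 3.26% higher. For glucuronidation, UGDH makes UDP-glucuronate. Its levels of 101 CPM (S04), 62.6 (S05) and 55.4 (S03) were all below the WT values of 120 to 146. Its log2 fold change was -0.68 (adjusted p = 0.178). Of 10 genes listed around UDP-glucuronate 1 was called, MIOX, which opens the ring of myo-inositol to give free glucuronate, not UDP-glucuronate. Its CPM was 7.24, 15.9 and 2.55 in S04, S05 and S03, against 189, 201.2 and 82.8 in WT. MIOX fell by 3.77 on the log2 scale (standard error 0.54, adjusted p = 0.0431 from edgeR and 3.23e-13 from DESeq2). DESeq2 called 3 genes of this list lower. The list had a median of -0.50, with 7 of 10 negative. MIOX was no longer called by edgeR with S03 added (adjusted p = 0.0618), nor without S04, S05, WT1 or WT2 (log2 fold changes of -4.43 to -3.31, adjusted p of 0.0627 to 0.147 from edgeR).

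For sulfation, PAPSS2, the main PAPS synthase of liver, had 33.5 CPM in S04 and 67.5 in S05, below WT at 80.5 to 123, and S03 had 84.2, within the WT range. Its log2 fold change was -0.95 (adjusted p = 0.182). Of 9 genes of PAPS supply that were measured, 1 was called, SUOX, which oxidizes sulfite to sulfate. SUOX measured 13.3 to 23.3 CPM over the 3 ASGR1+/- livers, against 46.3, 60.01 and 66.0 in WT, and fell by 1.76 on the log2 scale (standard error 0.26, adjusted p = 0.0463 from edgeR and 7.39e-07 from DESeq2). DESeq2 called 2 genes of this list lower. The edgeR call of SUOX was lost with S03 added (-1.59, adjusted p = 0.0618) and when any 1 library was left out (adjusted p of 0.0579 to 0.17 from edgeR). The list median was -0.14, with 6 of 9 negative.

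For glutathione, the 2 subunits of glutamate-cysteine ligase had fold changes of opposite sign, and neither was called. GCLC, the catalytic subunit, had 106 and 57.2 CPM in S04 and S05 against 137 to 203 in WT (log2 fold change -0.98, adjusted p = 0.156). GCLM, the modifier subunit, had 109 and 83.7 CPM against 69.5 to 77.4 in WT (0.41, adjusted p = 0.255). S03 had 122 CPM of GCLC, below WT, and 71.6 CPM of GCLM, within the WT range. With S03 the log2 fold changes were -0.75 for GCLC and 0.28 for GCLM (adjusted p = 0.282 and 0.507 from edgeR). Glutathione synthetase GSS had a log2 fold change of 0.31 (adjusted p = 0.343), and glutathione reductase GSR one of -0.75 (adjusted p = 0.113 from edgeR and 0.0338 from DESeq2). Of 16 genes of glutathione synthesis and turnover tested, edgeR called 0, with 5 lower and 2 higher at an unadjusted p under 0.05, and DESeq2 called 2 lower and 1 higher.

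**Figure D4:**
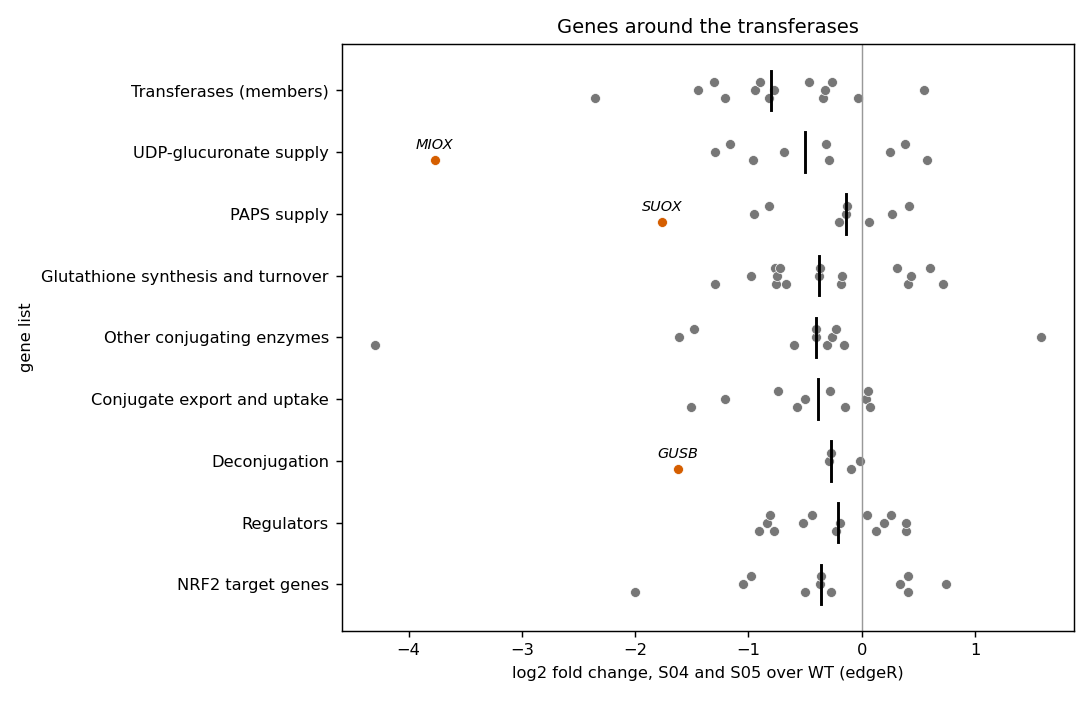
Log2 fold change from edgeR (S04 and S05 against WT) for the 14 tested transferases and for the tested genes of 8 lists around them, with 1 point per gene and a black bar at each median. Called genes are orange and named (MIOX, SUOX and GUSB), and the median of the transferases, -0.80, is the most negative of the 9 rows.

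After conjugation, products leave the cell or are hydrolysed. Of 10 transporters edgeR called 0, with 2 lower and 0 higher at an unadjusted p under 0.05, and DESeq2 called 2 lower, with a list median of -0.39. Of 5 deconjugating enzymes tested 1 was called, GUSB, the lysosomal beta-glucuronidase that removes glucuronic acid. GUSB measured 32.1, 32.7 and 37.0 CPM in S04, S05 and S03, against 115, 74.9 and 110 in WT, so the groups did not overlap. It fell by 1.62 on the log2 scale (standard error 0.23, adjusted p = 0.0433 from edgeR and 2.01e-07 from DESeq2), and by 1.55 with S03 (adjusted p = 0.0499 from edgeR). Without any 1 of the 5 libraries GUSB was not called by edgeR, at adjusted p of 0.0579 to 0.182 from edgeR and log2 fold changes of -1.79 to -1.49.

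Among the other conjugating enzymes, 10 of 11 tested were negative and the median was -0.40. EdgeR called 0 of them, with 2 lower and 1 higher at an unadjusted p under 0.05, and DESeq2 called 2 lower and 1 higher. Of 14 regulators edgeR called 0, with 3 lower and 0 higher at an unadjusted p under 0.05, DESeq2 called 3 lower, and the median was -0.21. Among them the receptor PXR (gene NR1I2), which binds drugs and bile acids, had 61.8 and 65.3 CPM in S04 and S05 and 99.002, 121 and 120.4 in WT, without overlap (log2 fold change -0.84, adjusted p = 0.0749 from edgeR), and S03 had 96.0. NFE2L2, the gene of NRF2, overlapped between the groups, with a log2 fold change of -0.20 (adjusted p = 0.617). Of 11 NRF2 target genes 7 were negative and 4 positive, and edgeR called 0, with 2 lower and 2 higher at an unadjusted p under 0.05, while DESeq2 called 1 lower. NR1I2 and NFE2L2 were chosen for mention after their values were seen.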

How the data were processed

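Liver RNA of 6 pigs, 1 library each, was sequenced on a BGISEQ instrument, and groups follow the genotype in the labels. The authors trimmed reads with SOAPnuke and aligned them with HISAT, and to the genes with Bowtie2. The submitters' processing notes name HISAT2 2.0.4, Bowtie2 and Sscrofa11.1. The deposited table holds an estimated count per gene and library, not normalized, made by a tool not given in the sources used here. It also holds the deposited FPKM, scaled by the authors for gene length and library fragments and not used here, and the deposited TPM, scaled by the authors to a fixed sum. Group averages in the table, which include S03, were not used.

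Of the estimated counts, 12.0% of cells were not whole, and counts were rounded to whole numbers. All 17109 gene IDs matched RefSeq. The main test was edgeR 4.0.16 (R 4.3.3): TMM scaling, filterByExpr with a minimum count of 10, quasi-likelihood test and Benjamini-Hochberg adjustment. Standard errors were obtained by dividing the size of the fold change (log2) by the root of the F statistic. Alternatives were DESeq2 1.42.0, other size factors, no filter, limma 3.58.1 on log2(TPM + 1) and log2(TPM + 0.1), leaving out each library, and adding S03. The tests were checked on simulated data. With 2 or 3 animals a group, standard errors hold the spread between animals along with counting error. Members and lists were chosen with earlier results of these data known. Members named by rule were those called by edgeR or DESeq2, the most abundant of each family, and the 5 highest and 5 lowest in fold change. Genes of the lists were named where edgeR called them, along with 6 cofactor genes in any case.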

Additional observations from a re-analysis of the deposited data

How the results depend on the processing

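For S04 and S05 against WT, 0 members were called in the main analysis, 5 by DESeq2 and 2 by limma on log2(TPM + 1) (GSTA4 and MGST3, both lower, beside 1.26% of all genes). With all 6 libraries the count was 0, and 3 by DESeq2. Without 1 WT library in turn, DESeq2 called 3 to 6 members lower for S04 and S05, beside 3.40% to 5.25% of all genes. Without 1 of all 6 libraries in turn it called 3 to 5 members lower. The 5 were called without S03, which is the main comparison, beside 6.30% of all genes lower. In the other settings DESeq2 called 3 or 4, for which shares of all genes were not computed. Both ways of leaving out libraries with DESeq2 were chosen after seeing the data. The 6 members that did not overlap became 7 to 11 without 1 library (11 without S04), beside 48.0% to 66.6% of all genes. The SULT median of -0.82 was -1.49 with DESeq2 and -1.47 without the filter, both of which take in SULT2B1. It was -1.74 to -0.55 without 1 library, and the medians without S04 (-1.74) and without S05 (-1.03) also take in SULT2B1. Over the 3 SULT genes of the main comparison the middle value was then that of SULT2A1, -1.54 without S04 and -0.33 without S05. The GST median of -0.89 was -0.70 with S03 and -1.10 to -0.77 without 1 library. MGST1 reversed to 0.045 with limma at either pseudocount and to 0.15 with S03, and ranged from -0.48 to 0.34 without 1 library. MGST2 reversed to 0.059 with S03 and ranged from -0.86 to 0.17, and SULT1A3 ranged from -0.069 to 1.0. The cause was not tested. Other size factors moved no result past these limits. The limma settings shifted the median of all genes to 0.10 and 0.12. No paired analysis was possible because the groups share no replicate numbers. GSTM3 and SULT2B1 had the lowest counts of the members.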

Other observations

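Among the other conjugating enzymes, some genes lay just outside the threshold and were chosen for mention after their values were seen. NNMT, which methylates nicotinamide, had 838 and 1025 CPM in S04 and S05 and 499 in S03, all above the WT values of 379.8, 313 and 239.6 CPM. Its log2 fold change without S03 was 1.58 (standard error 0.25, adjusted p = 0.0500155 from edgeR). METTL7B, a thiol methyltransferase, had 17.8 and 13.6 CPM in S04 and S05 and 99.5 to 486 CPM in WT, but S03 had 78.5. The METTL7B difference was -4.30 on the log2 scale (adjusted p = 0.0515 from edgeR). None of these genes was called by edgeR with all 6 libraries.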
